A study of Mus musculus with 15 samples.

Results

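The sarcomere is held together by proteins that neither pull nor switch contraction on, and 43 genes for such proteins were followed here in mouse heart muscle cells made to carry extra ATF4 or extra DDIT3. The 43 were chosen by symbol as genes of the Z-disc, the M-band and the sarcomere scaffold, and all 43 were found among the 23337 rows of the count table. RNA came from cardiomyocytes isolated by Langendorff perfusion and purified by FACS from 4-week-old mice of the Rosa-Cas9GFP line that had been injected on postnatal day 1 with an adeno-associated virus (AAV). The vector was AAV-ATF4-2A-GFP (the ATF4 group), AAV-DDIT3-2A-GFP (the DDIT3 group) or AAV-GFP (the GFP group), with 5 libraries in each of the 3 groups, so that the Cas9 and GFP transgene and a GFP-encoding vector were shared by all of them. The promoter that drives the vectors, the mouse strain and whether hearts were pooled are not given in the sources used here. Both vectors encode transcription factors of the cell's stress responses: ATF4 is the effector made when translation initiation is limited, and DDIT3 (CHOP) is produced when unfolded protein accumulates in the endoplasmic reticulum.

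In a heart muscle cell the Z-disc anchors actin filaments of opposite polarity and crosslinks them with alpha-actinin, while the M-band links myosin filaments in the middle of the sarcomere. Titin spans the distance between them and carries spring regions to which signalling proteins bind. Around this frame sit LIM-domain adaptors, capping proteins that set the length of the thin filament, small heat shock proteins and filamin, which handle damaged actin-bound proteins, and ubiquitin ligases of the MuRF family. Mutations of many of these genes cause inherited cardiomyopathy in humans.

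Total counts lay between 6217744 and 7514376 in ATF4 libraries, 7268663 and 8317249 in DDIT3 libraries and 6680988 and 7963333 in GFP libraries. The 43 genes together took 4.13 ± 0.244% of the counts in ATF4, 4.30 ± 0.154% in DDIT3 and 4.2 ± 0.255% in GFP (SD, n = 5 each). Both vectors were visible in the RNA: Atf4 stood at 400 ± 79.5 CPM (counts scaled to library size) in ATF4 and 71.1 ± 12.2 CPM in GFP, and Ddit3 at 844 ± 180 CPM in DDIT3 and 15.6 ± 1.28 CPM in GFP. Ddit3 was also higher in ATF4 than in GFP, at 29.5 ± 7.62 CPM (log2 fold change 0.913 ± 0.175, edgeR adjusted p = 0.00061). Atf4 in DDIT3, at 66.5 ± 22.9 CPM, did not pass against GFP (edgeR adjusted p = 0.946). Of 10 cardiomyocyte markers all were detected in every group, with a summed level of 89900 to 101000 CPM in ATF4, 114000 to 124000 CPM in DDIT3 and 110000 to 139000 CPM in GFP, and 6 of the 10 fell in ATF4 against GFP. Markers of other cells were also present: the 14 endothelial genes summed to 1140 to 1650 CPM in ATF4, 480 to 818 CPM in DDIT3 and 499 to 1000 CPM in GFP, and 11 of the 14 rose in ATF4 against GFP. The 11 pericyte and smooth muscle genes summed to 760 to 1450 CPM in ATF4, 729 to 1450 CPM in DDIT3 and 896 to 1390 CPM in GFP, and 5 of 10 tested rose in ATF4, the pericyte-associated genes Cspg4, Pdgfrb, Notch3, Rgs5 and Kcnj8. The 12 fibroblast genes summed to 504 to 1080 CPM in ATF4, 324 to 620 CPM in DDIT3 and 399 to 888 CPM in GFP, with 2 of 11 tested higher and 1 lower in ATF4. The 11 atrial genes summed to 781 to 1340 CPM in ATF4, 668 to 1660 CPM in DDIT3 and 326 to 658 CPM in GFP. Of these, Nppa alone had a mean of 760 CPM in ATF4, 872 CPM in DDIT3 and 290 CPM in GFP. Of the 10 atrial genes tested in ATF4 against GFP, Myl1 and Nppa were higher and Kcnj3 and Stard10 lower (median log2 fold change -0.53). In DDIT3 against GFP only Stard10 passed, higher. The 10 skeletal muscle genes, which include cardiac transcripts such as Ckm, summed to 1570 to 3890 CPM in ATF4, 3430 to 4410 CPM in DDIT3 and 3910 to 4400 CPM in GFP, and 3 of the 10 were at 0 in all ATF4 libraries, 1 in all DDIT3 libraries and 2 in all GFP libraries. The 10 leukocyte genes summed to 16.0 to 33.9 CPM in ATF4, 18.3 to 32.4 CPM in DDIT3 and 25.3 to 36.2 CPM in GFP. In ATF4 against GFP, 32.2% of all 11814 genes tested passed an adjusted p below 0.05 in edgeR (16.5% higher, 15.6% lower). Of the tested markers 60% passed for cardiomyocytes, 78.6% for endothelium and 50% for pericytes and smooth muscle. The shares were 40% for atrial and 27.3% for fibroblast markers. All 3 skeletal muscle genes tested passed, Acta1 higher (log2 fold change 2.45 ± 0.32) and Ckm (-1.03 ± 0.15) and Tnni2 (-2.74 ± 0.48) lower. None of the leukocyte markers passed. In such bulk RNA, fewer cells of a type and less RNA per cell cannot be told apart, and the part of these markers in the results below was not tested. ATF4 replicate 2 and DDIT3 replicate 2 stood apart on the second principal component of all genes (scores of 40.6 and 35.2, against -25.4 to 13.9 in the others), and the label of GFP replicate 5 names another kit version (SMART-Seq3) than those of the other 14 libraries (SMART-Seq2). Counts without the pair of replicates 2 are given below. The kit does not mark strand, so reads of Des, Tmod1, Cryab, Cmya5, Myom1 and Nrap cannot be told apart from those of annotated antisense genes that overlap their exons.

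**Figure D1:**
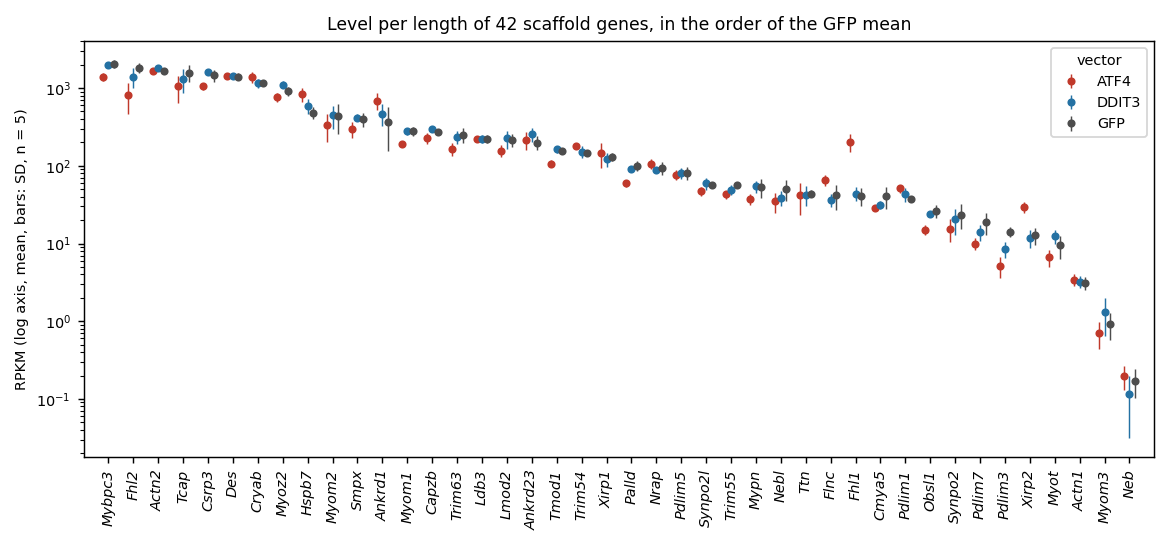
Level per length (RPKM, log axis) of 42 of the 43 genes, each in the ATF4, DDIT3 and GFP groups, as the mean and SD of 5 libraries. Genes run from left to right in the order of the GFP mean and Ankrd2 is left out. Mybpc3 is highest at 2070 RPKM in GFP and Neb lowest at 0.172 RPKM, and Fhl1 is the gene whose ATF4 point stands farthest above its GFP point.

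Levels per length spanned more than 4 orders of magnitude. In GFP libraries the highest were Mybpc3, cardiac myosin binding protein C, at 2070 ± 254 RPKM (CPM divided by the deposited gene length in kilobases), Fhl2 at 1840 ± 280 RPKM, Actn2, the muscle alpha-actinin, at 1680 ± 152 RPKM, and Tcap, the titin cap protein, at 1570 ± 388 RPKM (SD, n = 5). These neighbours in the order lay within each other's spread. Titin itself, Ttn, had 4570 ± 461 CPM in GFP but only 43.8 ± 4.42 RPKM, since its transcript is the longest of the genes compared. At the low end stood Actn1, the non-muscle alpha-actinin, at 3.12 ± 0.575 RPKM, Myom3, the slow-fibre myomesin, at 0.921 ± 0.340 RPKM, and Neb, nebulin of skeletal muscle, at 0.172 ± 0.0689 RPKM. Ankrd2, a titin-binding ankyrin protein best known from skeletal muscle, had 3 counts in all ATF4 libraries, 1 in all DDIT3 libraries and 4 in all GFP libraries. It was the 1 gene of the 43 that did not have enough counts to be tested, which left 42.

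The scaffold genes varied between libraries of the same vector about as much as, or somewhat more than, other genes of similar level. Over 36 of them with a mean of at least 50 CPM, the median coefficient of variation between libraries was 15.4% in ATF4, 16.9% in DDIT3 and 16.8% in GFP. Over all 3455 genes at that level it was 14.7%, 11.8% and 12.5% in the same 3 groups. Trim54 varied least, by 3.09% in ATF4, and among genes above 50 CPM Ankrd1 varied most, by 56.8% in GFP.

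The first question was which scaffold transcripts change when ATF4 is raised. Of the 42 tested, 7 rose, 15 fell and 20 did not pass, where passing means an adjusted p below 0.05 over all genes in the quasi-likelihood test of edgeR. Over all 11814 genes tested the same rule called 32.2% (16.5% higher, 15.6% lower), against 52.4% of the 42 scaffold genes (16.7% higher, 35.7% lower). The median log2 fold change was -0.33 over the 42 and 0.02 over all genes. The groups did not overlap in 4 genes that were higher and 9 that were lower in ATF4, where the background over all genes was 11.7% and 9.79%. Without ATF4 replicate 2 and DDIT3 replicate 2, 7 rose and 14 fell, and without GFP replicate 3 only 4 rose. With the replicate number as a block 7 rose and 21 fell, in a fit where 5097 of all 11814 genes passed.

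**Figure D2:**
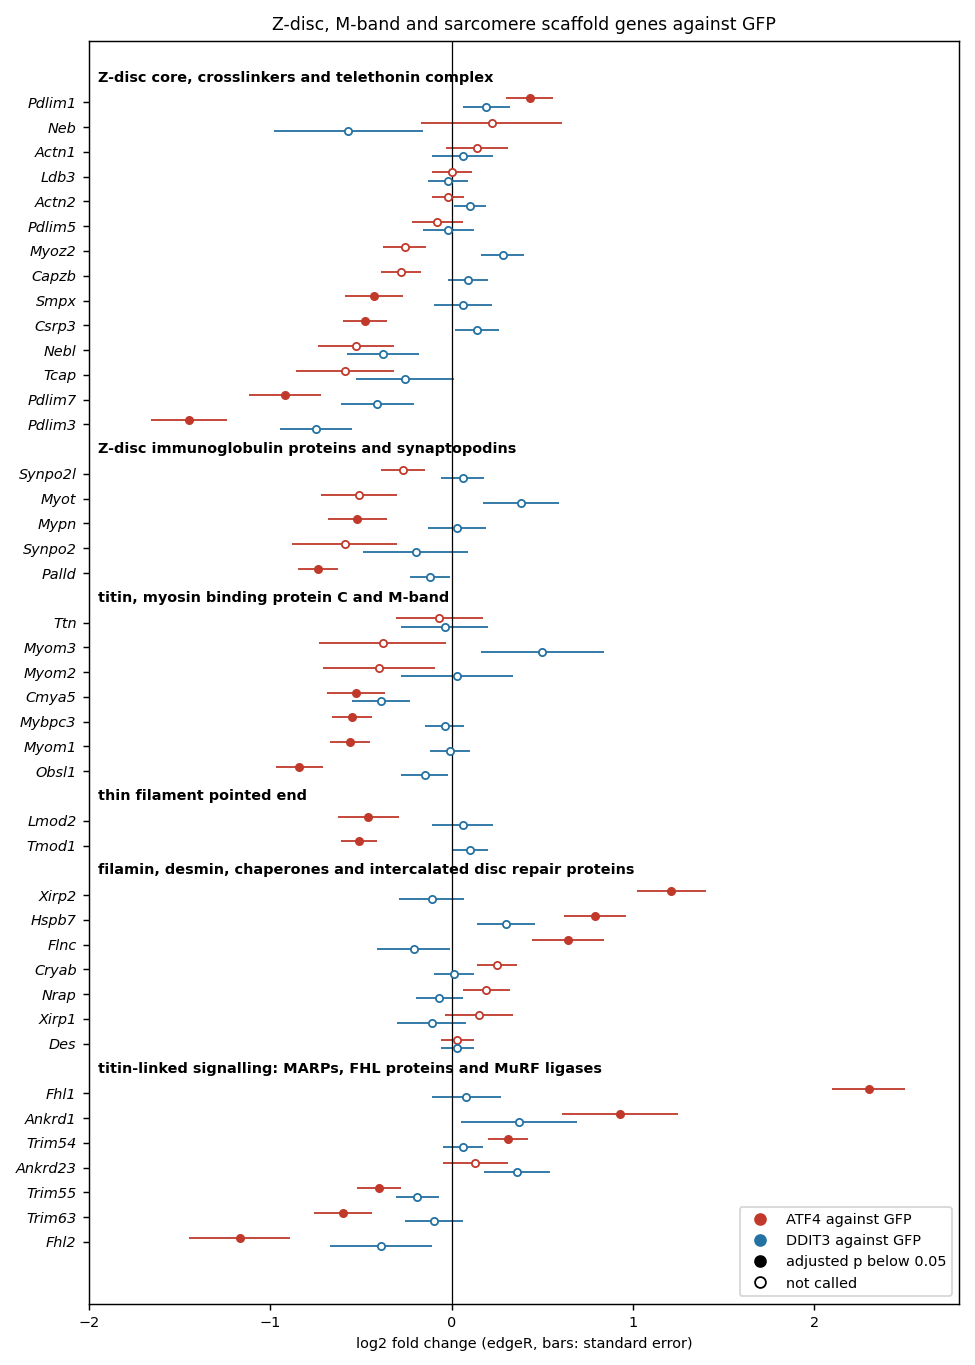
Log2 fold change of 42 scaffold genes (x axis, points with standard error) in ATF4 against GFP (red) and DDIT3 against GFP (blue), with genes grouped by role; filled points passed the adjusted threshold of 0.05 and open points did not. The ATF4 points run from -1.45 for Pdlim3 to 2.30 for Fhl1, and no DDIT3 point is filled.

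Changes were split by role, in small classes, where 32.2% of all genes passed (16.5% higher, 15.6% lower). Of the 7 genes of the group of filamin, desmin, their chaperones and the Xin-repeat proteins, 3 passed the test, all of them higher in ATF4 (median log2 fold change 0.25). Of the 7 genes of titin, myosin binding protein C and the M-band, 4 passed, all of them lower (median -0.53), and both genes of the thin filament pointed end fell (-0.46 and -0.51). Of 14 Z-disc core genes 4 fell and 1 rose (median -0.27), and of 5 Z-disc immunoglobulin and synaptopodin genes 2 passed, both lower (median -0.52). In both of these classes the share called in either direction is near that of all genes. The 7 tested genes of titin-linked signalling went both ways, with 3 higher and 3 lower.

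A pair of related genes moved apart. Fhl1 and Fhl2 are LIM-domain proteins that bind the spring region of titin. Fhl1 couples it to MAP kinase signalling, and Fhl2, the heart-enriched member, tethers metabolic enzymes and also acts as a transcriptional coregulator. In ATF4 libraries Fhl1 stood at 691, 412, 494, 531 and 789 CPM, in DDIT3 libraries at 129, 98.3, 135, 105 and 161 CPM and in GFP libraries at 94.8, 104, 123, 102 and 170 CPM. All 5 ATF4 libraries lay above all 10 others. The mean was 583 ± 153 CPM in ATF4 and 119 ± 30.5 CPM in GFP (SD, n = 5), and Fhl1 rose with a log2 fold change of 2.30 ± 0.20 (SE, edgeR adjusted p = 6.82e-08). Fhl2 went the other way. The values of Fhl2 were 847, 558, 1860, 1530 and 1600 CPM with ATF4, 1710, 1320, 2520, 2540 and 2820 CPM with DDIT3 and 2200, 2710, 2940, 3260 and 3240 CPM with GFP. Every ATF4 library lay below every GFP library, with ATF4 replicates 1 and 2 lowest, and 2 DDIT3 libraries lay within the ATF4 range. Fhl2 fell, with a log2 fold change of -1.17 ± 0.28 (SE, edgeR adjusted p = 0.00454) and means of 1280 ± 550 CPM in ATF4 and 2870 ± 437 CPM in GFP (SD, n = 5). Both calls were kept under all 21 alternative settings, with an adjusted p of up to 1.05e-06 for Fhl1 and 0.0144 for Fhl2. The ratio of Fhl1 to Fhl2 per length was 0.145 to 0.444 in ATF4 libraries (median 0.269), 0.0225 to 0.0411 in DDIT3 libraries (median 0.0311) and 0.0171 to 0.0285 in GFP libraries (median 0.0228).

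The promoters of this pair are shown because the genes moved in opposite directions while both hold a CArG box, the element bound by serum response factor (SRF), in the 250 bases before a RefSeq start site (GRCm38.p6). Fhl1, chrX:56779433-56779682, plus strand, has its CArG box at bases -102 to -93 from the start site. Fhl2, chr1:43196762-43197011, minus strand, has one at bases -96 to -87 and a MEF2 motif at bases -31 to -22. Capitals mark these matches.
Fhl1: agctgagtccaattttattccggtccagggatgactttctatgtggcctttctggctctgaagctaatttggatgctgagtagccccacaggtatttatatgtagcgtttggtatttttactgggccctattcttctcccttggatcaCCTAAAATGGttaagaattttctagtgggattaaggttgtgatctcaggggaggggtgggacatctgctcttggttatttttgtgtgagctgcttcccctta
Fhl2: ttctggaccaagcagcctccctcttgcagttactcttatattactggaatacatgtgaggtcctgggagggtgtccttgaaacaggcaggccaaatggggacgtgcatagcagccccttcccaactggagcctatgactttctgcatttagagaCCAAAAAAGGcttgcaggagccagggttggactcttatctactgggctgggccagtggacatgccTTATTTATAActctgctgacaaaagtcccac
RefSeq windows from 250 bases before to 50 bases after the start were found for 36 of the 43 genes (49 windows). Both strands were searched. A CArG box stood in 7 of the 49 windows (14.3%), those of Fhl1, Fhl2, Ldb3, Myom1 and Nebl, and in 1.63% of all 32851 promoter windows. By gene this was 5 of 36, and the same Ldb3 box was counted in both of its overlapping windows. A MEF2 motif stood in 9 of the 49 (18.4%) and in 3.19% of all. A match says only that these letters are present.

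**Figure D3:**
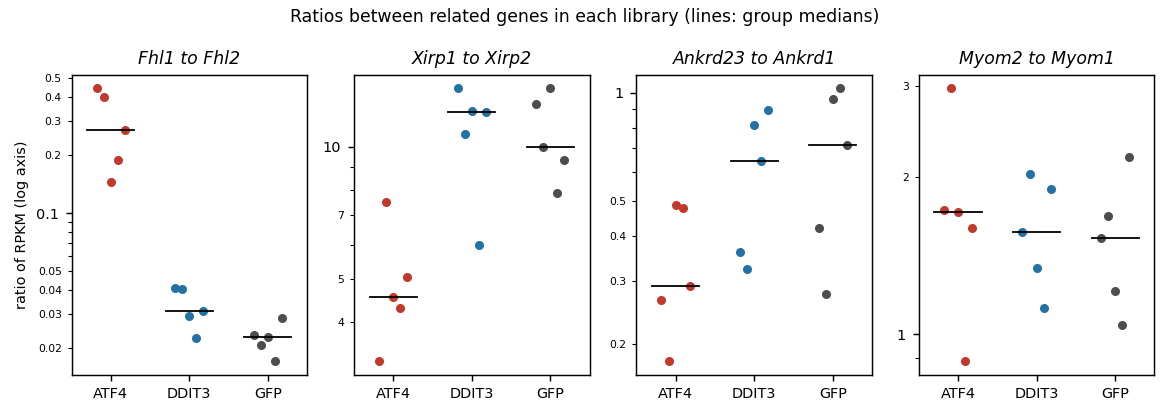
Ratio of the levels per length of related genes in each library (dots, log axis; lines are group medians), for Fhl1 to Fhl2, Xirp1 to Xirp2, Ankrd23 to Ankrd1 and Myom2 to Myom1, with the ATF4, DDIT3 and GFP groups from left to right. The Fhl1 to Fhl2 ratio of the ATF4 libraries (0.145 to 0.444) lies above that of all others, while the Myom2 to Myom1 ratios of the 3 groups overlap.

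The other titin-linked genes moved less. Ankrd1, a stretch- and stress-induced ankyrin protein of the titin spring region that also shuttles to the nucleus, varied widely between libraries. Reads of Ankrd1 came to 1440, 1480, 732, 1130 and 1300 CPM in ATF4, 1070, 1050, 589, 919 and 516 CPM in DDIT3 and 672, 1240, 298, 430 and 558 CPM in GFP. The groups overlapped, since GFP replicate 2 reached 1240 CPM and ATF4 replicate 3 stood at 732 CPM. It rose to a mean of 1220 ± 303 CPM in ATF4 against 639 ± 363 CPM in GFP (SD, n = 5), which on the log2 scale is 0.93 ± 0.32 (SE, edgeR adjusted p = 0.0391). This call was lost without ATF4 replicate 1, 2, 4 or 5 or GFP replicate 1, 3, 4 or 5 (edgeR adjusted p between 0.0554 and 0.0895), with no low-count filter (0.088), and without ATF4 replicate 2 and DDIT3 replicate 2 together (0.0923). Its relative Ankrd23 differed by 0.13 ± 0.18 (edgeR adjusted p = 0.620), and the ratio of Ankrd23 to Ankrd1 per length was 0.179 to 0.487 in ATF4, 0.324 to 0.894 in DDIT3 and 0.276 to 1.03 in GFP, with overlapping groups.

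The Ankrd1 promoter is shown for its matches to CATTCC, the core of the muscle MCAT element bound by TEAD factors, which lie at bases -210 to -205 and -123 to -118 on the opposite strand (capitals). The window is chr19:36119845-36120094, minus strand, GRCm38.p6.
Ankrd1: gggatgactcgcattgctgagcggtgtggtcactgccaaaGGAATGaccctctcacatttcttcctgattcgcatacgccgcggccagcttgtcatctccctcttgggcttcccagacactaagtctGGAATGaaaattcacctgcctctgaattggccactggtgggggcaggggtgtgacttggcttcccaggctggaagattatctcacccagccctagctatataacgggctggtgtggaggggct
CATTCC was found in 14 of the 49 windows of scaffold genes (28.6%) and in 14.7% of all windows. By gene this was 12 of 36, and the same Flnc match was counted in both of its overlapping windows.

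The MuRF ubiquitin ligases, which bind titin near the M-band, went different ways. Trim63 had 357, 384, 292, 309 and 229 CPM in ATF4 replicates 1 to 5, 442, 564, 384, 478 and 353 CPM in DDIT3 and 539, 608, 354, 446 and 431 CPM in GFP. All ATF4 values of Trim63 (MuRF1, the ligase of muscle atrophy) lay between 229 and 384 CPM, and GFP replicate 3 fell inside that range. The mean was 314 ± 60.2 CPM in ATF4 and 476 ± 98.9 CPM in GFP (SD, n = 5), and Trim63 fell with a log2 fold change of -0.60 ± 0.16 (SE, edgeR adjusted p = 0.00939). Trim55 (MuRF2) fell by 0.40 ± 0.12 (edgeR adjusted p = 0.0153), to 76.6 ± 8.97 CPM in ATF4 against 101 ± 9.60 CPM in GFP, with groups that did not overlap. Trim54 (MuRF3) rose by 0.31 ± 0.11 (edgeR adjusted p = 0.0322), to 278 ± 8.58 CPM in ATF4 against 224 ± 16.6 CPM in GFP (SD, n = 5 each), and again the groups did not overlap. The Trim54 call was lost with no low-count filter (0.0687) and without ATF4 replicate 1, 3 or 4 or GFP replicate 1, 3 or 4 (edgeR adjusted p between 0.0545 and 0.0819).

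Rises were found among the Xin-repeat, filamin and small heat shock protein genes. Xirp2, an actin-binding Xin-repeat protein of intercalated discs and Z-discs, rose most among them. In ATF4 libraries Xirp2 stood at 401, 367, 260, 365 and 370 CPM, in DDIT3 libraries at 90.5, 126, 149, 194 and 145 CPM and in GFP libraries at 127, 129, 122, 186 and 197 CPM. All 5 ATF4 libraries lay above all 10 others, with ATF4 replicate 3 lowest of the 5. Xirp2 rose, with a log2 fold change of 1.21 ± 0.19 (SE, edgeR adjusted p = 7.57e-05) and means of 353 ± 53.7 CPM in ATF4 and 152 ± 36.3 CPM in GFP (SD, n = 5). Its relative Xirp1 had 848 ± 304 CPM in ATF4 and 764 ± 101 CPM in GFP (0.15 ± 0.19, edgeR adjusted p = 0.585). The ratio of Xirp1 to Xirp2 per length was 3.26 to 7.5 in ATF4, 5.98 to 13.6 in DDIT3 and 7.85 to 13.6 in GFP, so that ATF4 and GFP did not overlap.

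Such a motif, the MEF2 site of myocyte enhancer factors, stood in windows of 8 scaffold genes. Of these, Fhl2 and Mybpc3 fell in ATF4 against GFP, and Ttn, Myoz2, Synpo2, Myom3 and Synpo2l did not pass. Xirp2 is shown as the raised gene among them. Its promoter window (chr2:67445752-67446001, plus strand, GRCm38.p6) holds the motif at bases -74 to -65 (capitals).
Xirp2: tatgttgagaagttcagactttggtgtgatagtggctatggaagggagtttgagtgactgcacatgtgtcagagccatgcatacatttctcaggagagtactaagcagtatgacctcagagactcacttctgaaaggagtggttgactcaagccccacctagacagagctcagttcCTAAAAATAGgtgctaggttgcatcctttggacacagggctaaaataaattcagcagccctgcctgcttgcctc

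Hspb7, the small heat shock protein of heart that works with filamin C, and Flnc, filamin C itself, a crosslinker of actin at Z-discs and intercalated discs, both rose. The values of Hspb7 were 2270, 2050, 3000, 1680 and 2570 CPM with ATF4, 1300, 1250, 1810, 1920 and 1940 CPM with DDIT3 and 1360, 1090, 1310, 1240 and 1690 CPM with GFP. ATF4 replicate 4 lay just below GFP replicate 5, and the other 4 ATF4 libraries lay above all GFP libraries. It rose to a mean of 2310 ± 503 CPM in ATF4 against 1340 ± 223 CPM in GFP (SD, n = 5), which on the log2 scale is 0.79 ± 0.17 (SE, edgeR adjusted p = 0.00136). Reads of Flnc came to 639, 668, 433, 637 and 619 CPM in ATF4, 294, 252, 335, 374 and 407 CPM in DDIT3 and 330, 232, 375, 388 and 598 CPM in GFP. ATF4 replicate 3 stood well below the other 4 ATF4 libraries, and GFP replicate 5, at 598 CPM, lay above it. The mean was 599 ± 94.6 CPM in ATF4 and 385 ± 134 CPM in GFP (SD, n = 5), and Flnc rose with a log2 fold change of 0.64 ± 0.20 (SE, edgeR adjusted p = 0.0192). Both calls were kept under all 21 alternative settings (adjusted p of up to 0.00498 and 0.0476). Of the vessel markers, 11 of 14 endothelial genes and the 5 pericyte-associated genes were higher in ATF4, while the smooth muscle genes Acta2 (-0.25 ± 0.61), Myh11 (0.17 ± 0.37) and Tagln (0.37 ± 0.40) did not pass the test, and their part in the Flnc value was not tested. Flna, the widely expressed filamin, named after its value was seen, rose as well (0.90 ± 0.21, edgeR adjusted p = 0.00305).

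The other members of this group did not pass the test. Cryab had 1500, 1370, 2040, 1590 and 1680 CPM in ATF4 replicates 1 to 5, 1180, 1380, 1630, 1430 and 1280 CPM in DDIT3 and 1380, 1520, 1330, 1410 and 1230 CPM in GFP. ATF4 replicate 3 was the highest library, and the groups overlapped. Cryab, alpha-B-crystallin, the chaperone of desmin, differed by 0.25 ± 0.11 (edgeR adjusted p = 0.0982). It passed when ATF4 replicate 2 was left out (0.0408), and when DDIT3 replicate 2 was left out as well (0.0469). In ATF4 libraries Des stood at 3070, 2980, 3190, 2900 and 3260 CPM, in DDIT3 libraries at 2890, 3390, 2890, 2940 and 3330 CPM and in GFP libraries at 3230, 3460, 2870, 2590 and 2960 CPM. Des, desmin, the intermediate filament that ties Z-discs together, had overlapping values in all 3 groups and differed by 0.03 ± 0.09 (edgeR adjusted p = 0.852). Nrap, a nebulin-related anchoring protein of intercalated discs and of myofibril assembly, differed by 0.19 ± 0.13 (edgeR adjusted p = 0.269).

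**Figure D4:**
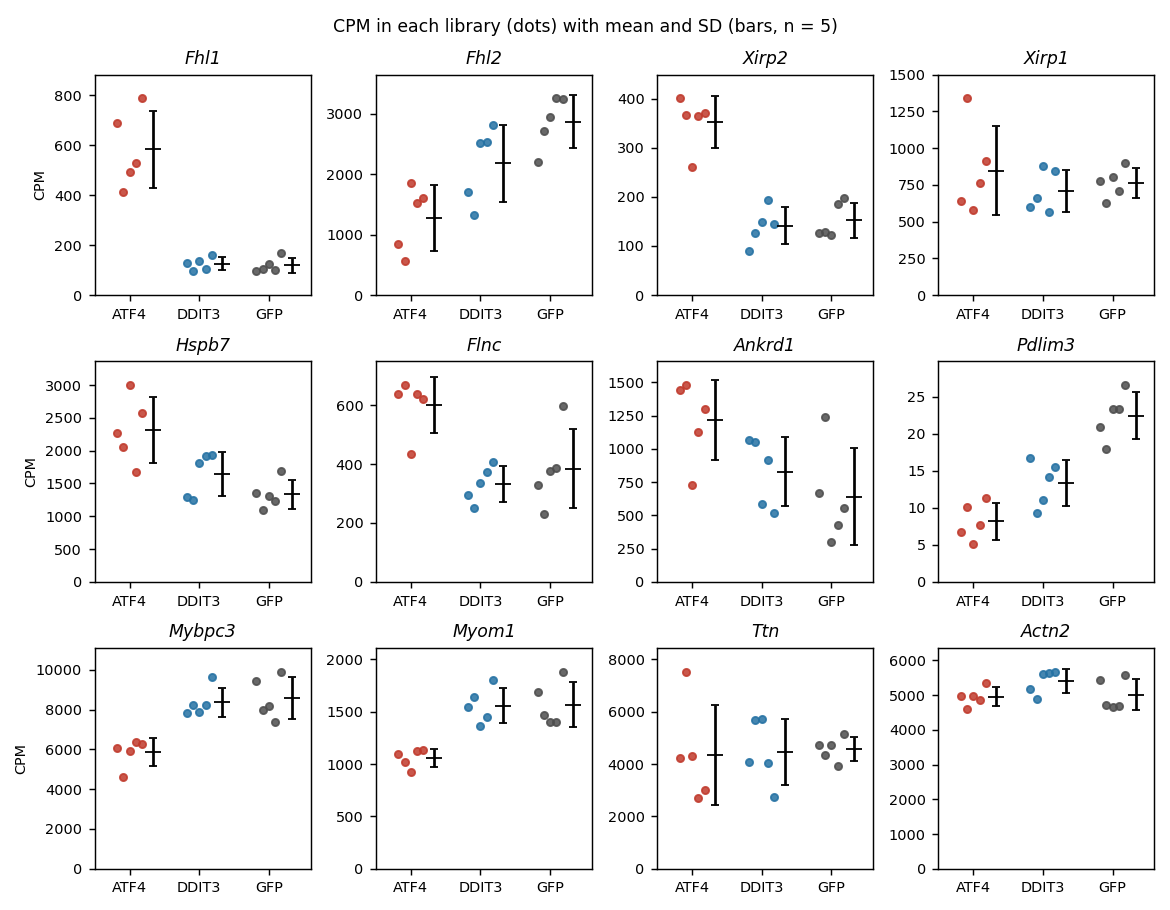
CPM of 12 scaffold genes in each library (dots) with the mean and SD of 5 libraries (bars), for the ATF4, DDIT3 and GFP groups from left to right; every y axis starts at 0. Fhl1 and Xirp2 in ATF4 lie above all other libraries, Mybpc3 and Myom1 below them, and the groups overlap in Actn2.

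In the thick filament and the M-band the changes were falls. The values of Mybpc3 were 6090, 4610, 5930, 6360 and 6260 CPM with ATF4, 7840, 8230, 7880, 8220 and 9640 CPM with DDIT3 and 9440, 7970, 8180, 7380 and 9890 CPM with GFP. All 5 ATF4 libraries lay below all 10 others, ATF4 replicate 2 lowest. Mybpc3 fell, with a log2 fold change of -0.55 ± 0.11 (SE, edgeR adjusted p = 0.000765) and means of 5850 ± 713 CPM in ATF4 and 8570 ± 1050 CPM in GFP (SD, n = 5). Mybpc3 encodes the accessory protein that regulates myosin heads and is a leading gene of hypertrophic cardiomyopathy. Reads of Myom1 came to 1100, 1020, 924, 1120 and 1130 CPM in ATF4, 1540, 1640, 1360, 1450 and 1800 CPM in DDIT3 and 1690, 1470, 1400, 1400 and 1880 CPM in GFP. Again all 5 ATF4 libraries lay below all others. It fell to a mean of 1060 ± 87.7 CPM in ATF4 against 1570 ± 211 CPM in GFP (SD, n = 5), which on the log2 scale is -0.56 ± 0.11 (SE, edgeR adjusted p = 0.000562). Myom1 encodes myomesin, the main crosslinker of the M-band. Obsl1 had 85.9, 107, 82, 73.2 and 80.8 CPM in ATF4 replicates 1 to 5, 151, 129, 130, 131 and 147 CPM in DDIT3 and 173, 111, 180, 137 and 165 CPM in GFP. The ATF4 libraries lay below all others here too, although ATF4 replicate 2 and GFP replicate 2 were close to each other. The mean was 85.7 ± 12.6 CPM in ATF4 and 153 ± 28.9 CPM in GFP (SD, n = 5), and Obsl1 fell with a log2 fold change of -0.84 ± 0.13 (SE, edgeR adjusted p = 9.49e-05). Obsl1 is the obscurin-like protein that binds titin and myomesin at the M-band. The summed level of the 10 cardiomyocyte markers was also lower in these libraries (89900 to 101000 CPM in ATF4 and 110000 to 139000 CPM in GFP), and its part in the M-band values was not tested.

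In Cmya5 and in titin itself the groups overlapped. In ATF4 libraries Cmya5 stood at 327, 364, 302, 321 and 368 CPM, in DDIT3 libraries at 327, 342, 355, 399 and 431 CPM and in GFP libraries at 405, 327, 447, 531 and 727 CPM. ATF4 values lay between 302 and 368 CPM, and GFP replicate 2 fell inside that range while GFP replicate 5 was far higher. Cmya5, myospryn, a scaffold of the costamere that binds desmin and alpha-actinin, fell to 337 ± 28.5 CPM in ATF4 against 488 ± 153 CPM in GFP, a change of -0.53 ± 0.16 on the log2 scale (edgeR adjusted p = 0.0167), and this call was lost without GFP replicate 5 (edgeR adjusted p = 0.0535). The values of Ttn were 4230, 7520, 4320, 2690 and 3010 CPM with ATF4, 4080, 5690, 5720, 4040 and 2750 CPM with DDIT3 and 4730, 4350, 4740, 3910 and 5130 CPM with GFP. ATF4 replicate 2 had the most titin reads of all libraries and ATF4 replicate 4 the fewest, so that the ATF4 group spanned the whole range. Ttn had 4360 ± 1910 CPM in ATF4 and 4570 ± 461 CPM in GFP, and the difference of -0.07 ± 0.24 on the log2 scale did not pass the test (edgeR adjusted p = 0.855). Myom2, the myomesin of fast and mature muscle, had 1650 ± 653 CPM in ATF4 and 2180 ± 919 CPM in GFP (-0.40 ± 0.31, edgeR adjusted p = 0.347), and Myom3 3.96 ± 1.49 CPM in ATF4 and 5.14 ± 1.90 CPM in GFP (-0.38 ± 0.35, edgeR adjusted p = 0.438). The Myom2 to Myom1 ratio per length was 0.887 to 2.97 in ATF4 and 1.04 to 2.19 in GFP.

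Transcripts of both thin filament pointed-end genes among the 43 fell. Reads of Tmod1 came to 288, 266, 317, 351 and 312 CPM in ATF4, 467, 394, 488, 517 and 476 CPM in DDIT3 and 425, 400, 418, 485 and 463 CPM in GFP. All ATF4 libraries lay below all others. Tmod1 fell, with a log2 fold change of -0.51 ± 0.10 (SE, edgeR adjusted p = 0.000648) and means of 307 ± 32 CPM in ATF4 and 438 ± 34.6 CPM in GFP (SD, n = 5). Tmod1, tropomodulin, caps the filament, and Lmod2, leiomodin, is needed for its full length in heart. Lmod2 had 309 ± 56.2 CPM in ATF4 and 424 ± 78.1 CPM in GFP (-0.46 ± 0.17, edgeR adjusted p = 0.0478). The Lmod2 call was at the threshold and was lost without any of 10 single libraries (ATF4 replicates 1, 3, 4 and 5, DDIT3 replicates 1, 3 and 4, GFP replicates 1, 2 and 4), with an edgeR adjusted p between 0.0502 and 0.118 in those fits. Their relatives outside the 43, named after their values were seen, went both ways: Tmod3 was higher in ATF4 (0.52 ± 0.18, edgeR adjusted p = 0.0303) and Lmod3 lower (-0.85 ± 0.18, edgeR adjusted p = 0.00178), as was Tmod4, described below.

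At the Z-disc, alpha-actinin did not pass the test while several of its partners fell. Actn2 had 4990, 4590, 4980, 4860 and 5340 CPM in ATF4 replicates 1 to 5, 5190, 4880, 5600, 5640 and 5670 CPM in DDIT3 and 5450, 4720, 4660, 4690 and 5570 CPM in GFP. The ATF4 and GFP groups overlapped. Actn2 had 4950 ± 270 CPM in ATF4 and 5020 ± 454 CPM in GFP, and the difference of -0.02 ± 0.09 on the log2 scale did not pass the test (edgeR adjusted p = 0.887). Ldb3 (Cypher or ZASP, a PDZ-LIM protein that binds alpha-actinin) differed by 0.00 ± 0.11 (edgeR adjusted p = 0.996), and Pdlim5 (ENH), of the same family, by -0.08 ± 0.14 (edgeR adjusted p = 0.698).

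The other PDZ-LIM genes, Pdlim1, Pdlim3 and Pdlim7, passed the test. In ATF4 libraries Pdlim3 stood at 6.77, 10.1, 5.11, 7.66 and 11.3 CPM, in DDIT3 libraries at 16.8, 9.29, 11, 14.2 and 15.5 CPM and in GFP libraries at 20.9, 18, 23.4, 23.4 and 26.6 CPM. All ATF4 and all DDIT3 libraries lay below all GFP libraries. It fell to a mean of 8.19 ± 2.51 CPM in ATF4 against 22.5 ± 3.2 CPM in GFP (SD, n = 5), which on the log2 scale is -1.45 ± 0.21 (SE, edgeR adjusted p = 3.18e-05). Pdlim3 is ALP, the actinin-associated LIM protein, a low-level transcript here. The values of Pdlim7 were 21.9, 29.5, 35.8, 32.2 and 28.7 CPM with ATF4, 46.1, 31.6, 51.9, 49.1 and 32.6 CPM with DDIT3 and 52.8, 45.6, 81.2, 64.5 and 35.9 CPM with GFP. The ATF4 libraries lay at or below 35.8 CPM and the lowest GFP library at 35.9 CPM, so the groups only just separated. The mean was 29.6 ± 5.14 CPM in ATF4 and 56 ± 17.5 CPM in GFP (SD, n = 5), and Pdlim7 fell with a log2 fold change of -0.92 ± 0.20 (SE, edgeR adjusted p = 0.00197). Pdlim7 is Enigma, an adaptor of the same family. Pdlim1 (CLP36), which is also expressed outside muscle, rose by 0.43 ± 0.13 (edgeR adjusted p = 0.0192), to 77.1 ± 9.03 CPM in ATF4 against 57.1 ± 4.34 CPM in GFP, a call lost without ATF4 replicate 5 (0.0556) or GFP replicate 3 (0.0505). Endothelial marker levels were higher in the same ATF4 libraries, and their part in the Pdlim1 value was not tested.

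The Pdlim3 promoter (chr8:45885237-45885486, plus strand, GRCm38.p6) is shown because it was the 1 window of the 49 with TGATGNAA, the core of the composite element bound by ATF4 with C/EBP partners, at bases -197 to -190. It overlaps by its first letters a CATTCC match on the opposite strand at bases -201 to -196, and a further CATTCC lies at bases -11 to -6 (capitals).
Pdlim3: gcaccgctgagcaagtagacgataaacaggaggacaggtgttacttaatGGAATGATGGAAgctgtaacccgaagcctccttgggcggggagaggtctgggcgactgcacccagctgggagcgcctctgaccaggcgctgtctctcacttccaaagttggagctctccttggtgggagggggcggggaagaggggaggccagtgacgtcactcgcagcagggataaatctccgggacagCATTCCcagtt
TGATGNAA was present in 3.97% of all windows and 2.04% of those of scaffold genes.

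Among the remaining Z-disc genes, Csrp3 fell. Reads of Csrp3 came to 1020, 944, 919, 1190 and 1020 CPM in ATF4, 1580, 1580, 1320, 1730 and 1610 CPM in DDIT3 and 1240, 1710, 1110, 1550 and 1490 CPM in GFP. ATF4 replicate 4 lay above GFP replicate 3, and the other ATF4 libraries lay below all GFP libraries. Csrp3 fell, with a log2 fold change of -0.48 ± 0.12 (SE, edgeR adjusted p = 0.00464) and means of 1020 ± 106 CPM in ATF4 and 1420 ± 241 CPM in GFP (SD, n = 5). Csrp3 is the muscle LIM protein of Z-disc stress sensing. Tcap had 1240, 902, 1520, 678 and 627 CPM in ATF4 replicates 1 to 5, 945, 1510, 1860, 831 and 1060 CPM in DDIT3 and 1710, 1760, 1790, 1240 and 970 CPM in GFP. Tcap, telethonin, which glues the ends of titin at the Z-disc, varied by 38.3% between ATF4 libraries, and the groups overlapped. Tcap had 993 ± 380 CPM in ATF4 and 1490 ± 368 CPM in GFP, and the difference of -0.59 ± 0.27 on the log2 scale did not pass the test (edgeR adjusted p = 0.105), and it passed when ATF4 replicate 3 was left out (0.0303). Smpx, a small X-linked protein of costamere and Z-disc, had 334 ± 77.6 CPM in ATF4 and 450.2 ± 89.2 CPM in GFP (-0.43 ± 0.16, edgeR adjusted p = 0.0428). The Smpx call was lost without ATF4 replicate 1, 2 or 5, DDIT3 replicate 1 or GFP replicate 2, 4 or 5 (edgeR adjusted p between 0.0507 and 0.113), without ATF4 replicate 2 and DDIT3 replicate 2 together (0.1) and within the 10 ATF4 and GFP libraries alone (0.0675).

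The other core genes did not pass. Capzb, the beta subunit of the capping protein CapZ, had 399 ± 63.7 CPM in ATF4 and 483 ± 20.9 CPM in GFP (-0.28 ± 0.11, edgeR adjusted p = 0.0528). It passed without ATF4 replicate 3 (0.0208) or ATF4 replicate 5 (0.0422), with other scaling factors (0.0446) and with DESeq2 (0.027). With the replicate number as a block Capzb passed too (edgeR adjusted p = 0.0123). Myoz2, calsarcin, which tethers calcineurin to alpha-actinin, differed by -0.26 ± 0.12 (edgeR adjusted p = 0.0885, and 0.0451 without ATF4 replicate 3). Nebl, the cardiac nebulin relative nebulette, differed by -0.53 ± 0.21 (edgeR adjusted p = 0.0578). It passed without ATF4 replicate 4 or 5, DDIT3 replicate 5 or GFP replicate 2 (0.0303 to 0.0452) and with DESeq2 (0.0427). With the replicate number as a block Nebl passed too (edgeR adjusted p = 0.00185). Neb (0.22 ± 0.39) and Actn1 (0.14 ± 0.17) had wide errors for their size (edgeR adjusted p = 0.702 and 0.549).

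The immunoglobulin-domain proteins that bind alpha-actinin had negative fold changes throughout, 2 of 3 past the threshold. In ATF4 libraries Palld stood at 220, 240, 203, 180 and 217 CPM, in DDIT3 libraries at 321, 334, 360, 274 and 345 CPM and in GFP libraries at 401, 314, 370, 290 and 400 CPM. All ATF4 libraries of palladin lay below all others. It fell to a mean of 212 ± 22.1 CPM in ATF4 against 355 ± 50.6 CPM in GFP (SD, n = 5), which on the log2 scale is -0.74 ± 0.11 (SE, edgeR adjusted p = 7.27e-05). The values of Mypn were 170, 205, 170, 189 and 244 CPM with ATF4, 263, 289, 260, 248 and 373 CPM with DDIT3 and 249, 230, 278, 233 and 412 CPM with GFP. ATF4 replicate 5 of myopalladin, which links the nebulin family and Ankrd1 to the Z-disc, overlapped the lower GFP libraries. The mean was 196 ± 30.9 CPM in ATF4 and 281 ± 76.1 CPM in GFP (SD, n = 5), and Mypn fell with a log2 fold change of -0.52 ± 0.16 (SE, edgeR adjusted p = 0.0206). The Mypn call was lost without ATF4 replicate 1 (0.056) or GFP replicate 5 (0.0686). Myot, myotilin, had 14.7 ± 3.59 CPM in ATF4 and 21.0 ± 6.92 CPM in GFP (-0.51 ± 0.21, edgeR adjusted p = 0.0760), and passed without ATF4 replicate 5 (0.0278) or GFP replicate 4 (0.0368). The actin-binding synaptopodin relatives Synpo2 and Synpo2l differed by -0.59 ± 0.29 (edgeR adjusted p = 0.133) and -0.27 ± 0.12 (edgeR adjusted p = 0.0995). Both passed with the replicate number as a block (edgeR adjusted p = 9.85e-05 and 0.0261) and in no other alternative fit.

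The second question was the same for DDIT3. None of the 42 passed edgeR's test against GFP (0 of 42, where 0.863% of all 11814 genes passed, 0.525% higher and 0.339% lower). At an unadjusted p below 0.05 there were 3 of 42, against 9.71% of all genes, and DESeq2 called 1. The median absolute log2 fold change was 0.11 over the 42 and 0.13 over all genes, and single values ran from -0.75 to 0.50. Pdlim3 stood lowest, at 9.29 to 16.8 CPM in DDIT3 and 18.0 to 26.6 CPM in GFP, at a log2 difference of -0.75 ± 0.20 (edgeR adjusted p = 0.1, in groups that did not overlap, the 1 gene of the 42 of which that was true, against 2.86% of all genes, 1.68% higher and 1.18% lower). With the replicate number as a block, which pairs these libraries, Pdlim3 passed (edgeR adjusted p = 0.0269), as it did with DESeq2 (0.0273) and in the authors' deposited table (-0.75 ± 0.18, adjusted p = 0.00597).

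The other 2 genes at an unadjusted p below 0.05 were Myoz2 (0.28 ± 0.12, 1280 ± 139 CPM in DDIT3 and 1050 ± 150 CPM in GFP) and Cmya5 (-0.39 ± 0.16, 371 ± 43.2 CPM in DDIT3 and 488 ± 153 CPM in GFP), both with an edgeR adjusted p of at least 0.402. For the genes with the largest changes in ATF4 against GFP, in that order after Pdlim3 is set aside, DDIT3 against GFP gave log2 differences of 0.08 ± 0.19 for Fhl1, -0.11 ± 0.18 for Xirp2, -0.39 ± 0.28 for Fhl2, 0.37 ± 0.32 for Ankrd1, -0.41 ± 0.20 for Pdlim7, -0.15 ± 0.13 for Obsl1, 0.30 ± 0.16 for Hspb7 and -0.12 ± 0.11 for Palld. A p that misses the threshold does not show that these levels were equal.

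The third comparison set ATF4 directly against DDIT3 and so tested where the 2 vectors differ. Of the 42 genes 4 were higher in ATF4, 16 lower and 22 not called, against a background of 33.8% of all genes (17.8% higher and 16.0% lower). Of the 42 these were 9.52% and 38.1%. The groups did not overlap in 3 genes that were higher and 10 that were lower in ATF4, where the background was 22.6% of all genes (12.3% and 10.3%). The 4 higher were Fhl1 (2.21 ± 0.20, edgeR adjusted p = 1.03e-07), Xirp2 (1.32 ± 0.19, edgeR adjusted p = 3.09e-05), Flnc (0.85 ± 0.20, edgeR adjusted p = 0.00304) and Hspb7 (0.49 ± 0.16, edgeR adjusted p = 0.0279). Cell type markers differed in this comparison too: 12 of 14 endothelial and 6 of 10 tested pericyte and smooth muscle genes were higher in ATF4, and none lower. Of 11 fibroblast genes tested 5 were higher and 1 lower, and of 10 cardiomyocyte markers 1 was higher and 5 lower. Their part in the values of the 42 genes was not tested. The replicate numbers were taken to pair the ATF4 and DDIT3 libraries. With the number as a block 7 were higher and 21 lower. The additions among the higher were Ankrd1 (edgeR adjusted p = 0.0373), Cryab (0.0465) and Trim54 (0.0256). Those among the lower were Myom2 (0.0297), Myom3 (0.0043), Pdlim7 (0.00682), Synpo2 (0.00296) and Trim55 (0.0484). Without ATF4 replicate 2 and DDIT3 replicate 2 the counts were 5 and 14. Single libraries also decided calls that were missed: Myom3 passed without ATF4 replicate 1, DDIT3 replicate 4 or 5 or GFP replicate 4 (0.029 to 0.0485), Pdlim7 without ATF4 replicate 3, DDIT3 replicate 2 or 5 or GFP replicate 3 or 5 (0.0332 to 0.0439), and Neb and Trim54 without DDIT3 replicate 2 (0.0152 and 0.0136). Nrap passed without ATF4 replicate 3 (0.0368), Cryab without ATF4 replicate 2 (0.043) and Pdlim1 without DDIT3 replicate 4 (0.0428), all with edgeR.

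Among the 16 lower were Tmod1 (-0.61 ± 0.10, 307 ± 32.0 CPM in ATF4 and 468 ± 45.6 CPM in DDIT3), Palld (-0.62 ± 0.11), Csrp3 (-0.62 ± 0.12, 1020 ± 106 CPM in ATF4 and 1560 ± 153 CPM in DDIT3), Myom1 (-0.56 ± 0.11), Obsl1 (-0.68 ± 0.13) and Mybpc3 (-0.52 ± 0.11), with an edgeR adjusted p of 0.0013 or less. Myot, at 14.7 ± 3.59 CPM in ATF4 and 27.3 ± 5.88 CPM in DDIT3, had the lowest value of all at -0.89 ± 0.21 (edgeR adjusted p = 0.00355), and Myoz2 (-0.54 ± 0.12, edgeR adjusted p = 0.00144) and Capzb (-0.36 ± 0.11, edgeR adjusted p = 0.0127) were also lower. The other 7 were Pdlim3, Mypn, Smpx, Lmod2, Fhl2, Trim63 and Synpo2l, at -0.33 to -0.77. Calls that single libraries decided were those of Fhl2 (lost without ATF4 replicate 1 or 2, DDIT3 replicate 3, 4 or 5 or GFP replicate 2 or 5, edgeR adjusted p between 0.0512 and 0.107), Hspb7 (without ATF4 replicate 3 or 5 or DDIT3 replicate 1 or 2, 0.0655 to 0.0836, and 0.06 without both replicates 2), Lmod2 (without ATF4 replicate 3 or 5 or DDIT3 replicate 2 or 3, 0.0559 to 0.0838) and Smpx (without ATF4 replicate 1 or 5 or DDIT3 replicate 4, 0.0519 to 0.055, and 0.0523 without both replicates 2). Trim63 was lost without ATF4 replicate 5 (0.0677) or DDIT3 replicate 2 (0.0717) or DDIT3 replicate 4 (0.05). Synpo2l was lost without ATF4 replicate 1, 2, 3 or 4, DDIT3 replicate 3, 4 or 5 or GFP replicate 1, 2, 3 or 4 (0.0511 to 0.138) and without both replicates 2 (0.0551).

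Lists of other genes around the scaffold, chosen with earlier results known, were read in the same fit. Of 24 tested further scaffold and other sarcomere genes, 3 rose and 10 fell in ATF4 against GFP (54.2% called, where 32.2% of all genes were, median -0.39). This list includes the contractile genes Myh6, Myl2 and Tnnt2, which are also among the cardiomyocyte markers. Of these, Myl2 was among those that fell (-0.45 ± 0.15), and Myh6 and Tnnt2 were not called. The lowest p belonged to Csrp1, a LIM protein of smooth muscle and other cells (1.33 ± 0.16, 51.7 CPM in ATF4 and 20.5 CPM in GFP), Tmod4, the tropomodulin of skeletal muscle (-1.47 ± 0.18, 7.11 CPM in ATF4 and 19.7 CPM in GFP), and Pdlim4, a further PDZ-LIM gene (-0.62 ± 0.10). Of 20 genes of sarcomere assembly and filamin quality control 3 rose and 5 fell, a share of 40% that is near the 32.2% of all genes. Smyd2, a methyltransferase that acts with heat shock protein in muscle (-0.91 ± 0.09), and Unc45b, the myosin chaperone (-0.55 ± 0.09), were lower, and Hsp90aa1 was higher (0.66 ± 0.15). Of 22 genes of the costamere, intermediate filaments and adhesion 4 rose, with the intermediate filament protein Synm at 1.5 ± 0.21, and 4 fell, with Itgb1bp2 (melusin) at -0.65 ± 0.10 and Tln2 (talin) at -0.61 ± 0.10, and the share called, 36.4%, is again near that of all genes. Of 11 regulators of such genes 1 rose and 5 fell (54.5%), with Wwtr1, the YAP relative TAZ, at 0.76 ± 0.11, Myocd, the SRF coactivator myocardin, at -0.67 ± 0.17 and Mef2a at -0.30 ± 0.08 (edgeR adjusted p of 0.00859 or less for these 12 genes in ATF4 against GFP). Srf itself, named after its value was seen, stood at -0.47 ± 0.13 (edgeR adjusted p = 0.0111). In DDIT3 against GFP no gene of these 4 lists passed edgeR's adjusted test (0 in each, with 2, 2, 1 and 1 at an unadjusted p below 0.05 in the order above, and medians of -0.05 to 0). DESeq2 called Tmod4 and Unc45b, both lower, and the fit with the replicate block called Unc45b.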

How the data were processed

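Polyadenylated RNA of FACS-purified cardiomyocytes was made into libraries with SMART-Seq v4 and Nextera XT kits, per the labels' protocols, with 15 libraries in 3 groups. The submitters' processing notes name STAR, featureCounts, DESeq2, DESeq and mm10; versions are not given there. The deposited table holds raw counts per gene and, per the file headers, the gene length in bases. The authors' deposited comparisons with GFP hold, per the file headers, a mean signal after size-factor scaling, log2 fold changes with standard errors, a score (the Wald statistic) and p-values. They called 6 scaffold genes higher and 18 lower in ATF4, and 1 lower in DDIT3. Of the calls in ATF4, 21 were also called here, in the same direction. The others, Tcap, Capzb and Nebl, had negative fold changes in both analyses and did not pass here.

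Counts were tested with edgeR 4.0.16 (R 4.3.3), with TMM factors, filterByExpr by group and the robust quasi-likelihood fit on all 15 libraries with group as the only term. Of 23337 genes, 5744 had no count and 11814 were tested, with 12 residual degrees of freedom and a common biological coefficient of variation of 19.6%. Adjusted p is Benjamini-Hochberg over all genes tested, at a threshold of 0.05. CPM divides by the total count scaled by the TMM factor, and RPKM also by the deposited gene length. The scripts were tested on simulated data. Total counts of 6217744 to 8317249 per library differ by 1.34 times at most, and read counts are not counts of independent molecules. No pair of libraries agreed within sampling noise (chi-square per degree of freedom 8.60 to 50.4).

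The 43 genes, the gene lists and the tests were chosen with earlier results of these data known. Every library's value is given for genes called with an absolute log2 fold change of at least 0.5 in ATF4 against GFP, and for 9 central genes whatever their test (Ttn, Tcap, Actn2, Myom1, Des, Mybpc3, Csrp3, Ankrd1, Cryab), and up to 3 called genes with the lowest p are named per further list. The labels do not say that libraries come from separate animals, so p-values measure the spread between these libraries, which may be technical. Replicate numbers are shared by the groups, and libraries of the same number deviated together: correlations of deviations from the group mean were 0.205 to 0.511 for DDIT3 with GFP and 0.135 to 0.497 for ATF4 with DDIT3, all 5 above 0.1, and 0.078 to 0.386 for ATF4 with GFP, where 4 of 5 were. Alternatives were RLE factors, no filter, DESeq2 1.42.0, the replicate block, only the 10 libraries compared, and leaving out each library or both replicates 2. Promoters are from RefSeq (GRCm38.p6) and exon overlaps from the GENCODE annotation (M21).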

Additional observations from a re-analysis of the deposited data

Results flagged for a closer look

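In each group of 5 libraries the highest or lowest CPM was set against its nearest neighbour, relative to the whole range. Of 126 groups checked (42 genes in 3 groups), 6 had a library that stood apart, where chance gives about 1 in 20. Mybpc3 had 4610 CPM in ATF4 replicate 2, against 5930 to 6360 CPM in the other ATF4 libraries. It also had 9640 CPM in DDIT3 replicate 5, against 7840 to 8230 CPM in the other DDIT3 libraries. In ATF4 replicate 3, Flnc had 433 CPM, where the other ATF4 libraries had 619 to 668 CPM. In the same library Xirp2 had 260 CPM, where the others had 365 to 401 CPM. Nebl had 226 CPM in GFP replicate 5, against 116 to 141 CPM in the other GFP libraries. Mypn had 412 CPM in GFP replicate 5, against 230 to 278 CPM in the others.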

How the results depend on the processing

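In ATF4 against GFP, the main counts of 7 higher and 15 lower stood at 4 to 7 higher and 12 to 17 lower when single libraries were left out, with 4 higher without GFP replicate 3. Across RLE factors, no filter, DESeq2 and the 10 libraries alone they were 5 to 7 and 14 to 17. The replicate numbers were not taken to pair these libraries, since only 4 of 5 correlations were above 0.1 (lowest 0.078). However, 8 of 10 libraries correlated best with the library of their own number. The same 8 of 10 held in ATF4 against DDIT3, where the numbers were taken as pairs. What a shared number stands for is not given, so the results of both fits are shown. The replicate block gave 7 higher and 21 lower, adding Capzb (edgeR adjusted p = 0.0123), Myot (0.00754), Nebl (0.00185), Synpo2 (9.85e-05), Synpo2l (0.0261) and Tcap (0.00392). In DDIT3 against GFP, the count of 0 stayed at 0 to 0 when single libraries were left out and was 1 with DESeq2 and 1 with the replicate block. Over all genes the calls there were 102 in the main fit, 224 with DESeq2, 322 with the replicate block and 55 to 146 without single libraries (55 without DDIT3 replicate 1, 146 without ATF4 replicate 2, and 62, 65, 65, 63 and 61 without DDIT3 replicates 2 and 3 and GFP replicates 1, 3 and 4). In ATF4 against DDIT3, the main counts of 4 higher and 16 lower were 3 to 5 and 13 to 16 without single libraries, and the replicate block gave 7 higher and 21 lower. Of the values of single genes in ATF4 against GFP, 41 lost their call in an alternative fit and 21 gained one, while 820 stayed on their side of the threshold and no called value reversed. The sign of 17 values of 7 genes that were not called (Actn2, Ankrd23, Des, Ldb3, Pdlim5, Ttn, Xirp1) turned. The cause of these shifts was not tested. With 5 libraries a group, the low genes (Neb, Myom3, Actn1, Myot, Pdlim3) have the fewest reads behind them, and Ankrd2 could not be tested.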
